A study of Mus musculus with 8 samples.

Results

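The genes described here act in osteoblast differentiation and in the mineralisation of bone matrix: Runx2, Sp7, Dlx5, Alpl, Enpp1, Ibsp, Spp1, Dmp1 and Phex, 9 named genes. They were followed in mouse bone marrow stromal cells through the probe sets annotated to 1 of these symbols alone, and 6 of the 9 had such a probe set among the 19938 genes of the series, namely Dlx5, Sp7, Alpl, Ibsp, Dmp1 and Phex. Each of the 6 had 1 probe set. Runx2, Spp1 and Enpp1 were not analysed here. The cells came from the femurs and tibiae of C57BL/6 mice aged 6 to 8 weeks, were expanded as adherent cultures and then grown on Skelite, a calcium phosphate scaffold, and measured on single-colour oligonucleotide arrays, 1 array for each of 2 media and 4 conditions. The media were growth medium and osteoinductive medium, of unstated composition. The conditions were microgravity in flight in automated hardware, a 1g centrifuge in the same flight incubator, manually operated units on the ground, and multiwell dishes in the laboratory. The microgravity and centrifuge arrays are called flight arrays below, and the ground and laboratory arrays ground-based arrays. The gravity label of both centrifuge samples reads microgravity, and 1 description places the osteoinductive centrifuge sample in growth medium. The titles were followed, so a wrong title would change every comparison that uses those arrays.

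Bone-forming cells arise from marrow stromal cells under the transcription factors Runx2 and Sp7 (osterix), with homeodomain proteins such as Dlx5 acting upstream of both. Mineral forms where phosphate is plentiful and its inhibitor pyrophosphate is scarce. Enpp1 makes pyrophosphate, and Alpl, tissue-nonspecific alkaline phosphatase, breaks it down. Ibsp (bone sialoprotein), Spp1 (osteopontin) and Dmp1 (dentin matrix protein) are acidic secreted phosphoproteins of mineralised matrix, and Phex is an endopeptidase of osteoblasts and osteocytes whose loss causes phosphate wasting.

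The genes for the acidic matrix proteins lie side by side, in the order Dmp1, Ibsp, Mepe and Spp1 on mouse chromosome 5. Upstream sequence was at hand for 7 of the 9 genes from RefSeq (GRCm38.p6), and it is shown for Ibsp, which differed most between flight and ground-based arrays, for its neighbour Dmp1, which did not pass the test there, and for Alpl, which passed with a smaller difference. Each window holds the 250 bases before a start site, on the gene's own strand. Capitals mark the motifs searched on both strands: TGTGGT, the core bound by RUNX proteins, TAATTA, a homeodomain core, and GGGCGG, the GC box.
Ibsp, chr5:104299037-104299286, plus strand: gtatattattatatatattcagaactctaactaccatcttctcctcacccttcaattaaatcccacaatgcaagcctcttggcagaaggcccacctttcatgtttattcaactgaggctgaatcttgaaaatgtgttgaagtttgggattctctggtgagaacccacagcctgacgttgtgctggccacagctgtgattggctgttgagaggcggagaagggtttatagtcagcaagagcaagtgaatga
Dmp1, chr5:104202367-104202616, plus strand: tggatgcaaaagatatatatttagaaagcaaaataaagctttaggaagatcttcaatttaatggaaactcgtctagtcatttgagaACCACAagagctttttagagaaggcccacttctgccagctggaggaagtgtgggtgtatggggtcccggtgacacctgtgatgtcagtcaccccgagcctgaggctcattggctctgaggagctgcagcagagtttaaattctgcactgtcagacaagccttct
Alpl, chr4:137796385-137796634, minus strand: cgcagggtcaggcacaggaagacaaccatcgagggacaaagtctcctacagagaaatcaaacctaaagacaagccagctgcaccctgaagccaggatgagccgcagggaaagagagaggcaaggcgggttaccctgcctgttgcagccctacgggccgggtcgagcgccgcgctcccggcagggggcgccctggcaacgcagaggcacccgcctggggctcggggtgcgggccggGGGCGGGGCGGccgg
The Ibsp window held none of the 3 motifs, which says only that these letters are not in it. The Dmp1 window held 1 RUNX core, beginning 164 bases before the start. The Alpl window held 2 overlapping GC boxes, beginning 15 and 10 bases before the start. Alpl and Dmp1 each have a further start site in the table, whose window held none of the motifs. Over 32851 promoter windows of the same length, 14.1% held a RUNX core, 4.84% the homeodomain core and 32.7% a GC box.

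The array medians lay between 180.9 and 196.4 intensity units, and the flight arrays had the 4 highest. The labels name no separate cultures or animals behind the arrays, and each medium and condition had 1 array. The p-values therefore rest on how far the arrays depart from the fitted terms, not on repeats. That spread may be technical, and it also holds any effect the fit leaves out, such as a medium effect that differs between conditions. The number of arrays limits the precision. Of 12 stromal markers with a probe set, 11 lay above the filter on dim genes, a mean log2 intensity of 7.14, and Lepr lay below it. Their mean log2 level per array ran from 9.33 to 9.56. Markers of other tissues were higher in flight arrays, up to a log2 difference of 4.30 for the neuronal gene Stmn2 (SE 0.08), and the lowest marker was the stromal gene Vcam1, at -0.59 (SE 0.13). The summed intensity of 14 neuronal markers ran from 8997 to 13584 in flight and from 3501 to 4509 in ground-based arrays, that of 10 skeletal muscle markers from 4882 to 6100 against 2108 to 2253, and that of 12 chondrocyte markers from 3613 to 4160 against 2654 to 2878. The sums of 10 endothelial markers ran from 1986 to 3305 against 1399 to 1481, and those of 10 lung epithelial markers from 2443 to 14393 against 1469 to 1632. The osteoinductive microgravity array was the highest for both. The next highest sums were 2184 and 3692, on the growth microgravity array. Limma called 11 of 11 neuronal, 8 of 9 muscle, 8 of 8 endothelial and 3 of 8 lung markers above the filter higher in flight. The share called higher among all genes above the filter was 12.7%. Dcx, Myh3, Pecam1 and Slc34a2 are among the markers that passed the filter only through their flight arrays. Counts among markers above the filter therefore favour those high in flight. The lists were also chosen with earlier results of these data known, so these counts are a description and not a test. The sums of 10 macrophage markers ran from 1627 to 2355 against 1563 to 1781, with 0 of the 6 above the filter called higher and 1 lower. The 2355 was the osteoinductive microgravity array, and the next highest flight sum was 1821. Of 3 adipocyte markers above the filter 1 was higher. Of the 11 stromal markers 1 was higher and 5 were lower, where 25.7% of all genes above the filter were called lower. None of the listed markers was at 0 on any array, but 21 of them lay below the filter, and in the fit over all genes 13 of these were called higher and 0 lower. They included the neuronal genes Nefl, Nefm and Elavl4, the macrophage gene Mrc1 (0.87, adjusted p = 0.000164) and the adipocyte genes Cd36 (2.32, adjusted p = 0.000873) and Lpl (0.59, adjusted p = 0.00279). Mrc1 was the only 1 of 4 dim macrophage markers called, and Cd36 and Lpl were 2 of 6 dim adipocyte markers. Of all genes below the filter 11.2% were called higher in that fit. In such bulk samples fewer cells of a type and less RNA per cell cannot be told apart.

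Most of the measured genes passed the test between flight and ground-based arrays. Ibsp, Dlx5, Alpl and Sp7, 4 of the 6 measured genes, passed the test, each with all 4 flight arrays above all 4 ground-based arrays, and none was lower. Ibsp was 3.32-fold higher, Dlx5 1.82-fold, Alpl 1.28-fold and Sp7 1.26-fold. All 4 ground-based values of Ibsp and of Sp7 lay below the filter, and the intensities used carry no call of signal above background, so these folds rest on dim values. Dmp1 and Phex did not pass the test, with log2 differences of 0.15 and 0.28. Tests used limma with medium as a covariate and a threshold of 0.05 on the adjusted p. Among the 13205 genes above the filter 38.4% were called, 12.7% higher and 25.7% lower, and in the fit over all 19938 genes, used for the dim genes Sp7 and Phex, 11.6% were called higher. Flight arrays lay above ground-based arrays without overlap for 11.8% of the genes above the filter, which do not include Sp7. Among the 5272 genes whose mean lay between those of the dimmest and the brightest of the 6, from 6.85 to 7.89, 21.0% were called higher in that fit, and their median log2 difference was 0.07, against -0.09 for all genes above the filter. The median over the 6 was 0.34.

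**Figure D1:**
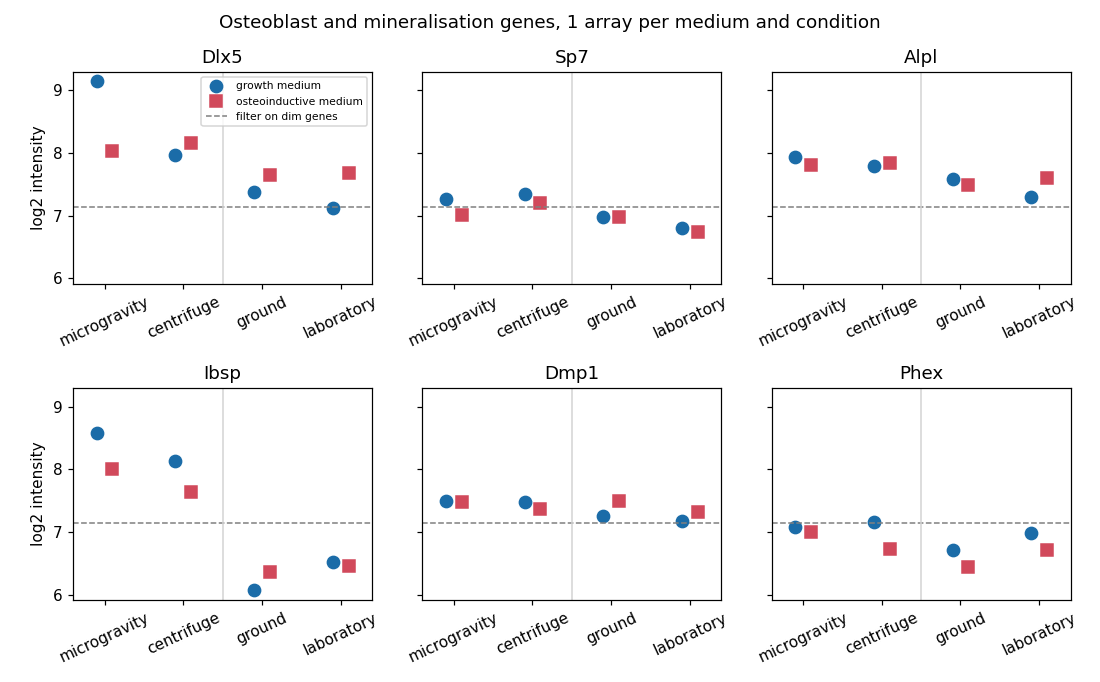
Log2 intensity of the 6 measured genes (vertical axis) on each array, 1 point per array, by condition (horizontal axis) and medium (circles, growth; squares, osteoinductive); the dashed line is the filter on dim genes at 7.14 and the vertical line divides flight from ground-based arrays. Ibsp lies above the filter on the 4 flight arrays and below it on the 4 ground-based arrays, and Dlx5 is highest on the growth microgravity array, at 9.14.

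Dlx5 and Sp7 are the transcription factors measured. Dlx5 (probe set 10543058) had log2 intensities in growth medium of 9.14 in microgravity, 7.96 on the centrifuge, 7.38 in ground units and 7.13 in dishes. In osteoinductive medium they were 8.03, 8.16, 7.64 and 7.69 in the same order. The growth microgravity array stood apart from the other three flight arrays, which lay within 7.96 to 8.16, and all 4 were above the ground-based arrays. The log2 difference between flight and ground-based arrays was 0.87 (SE 0.22, adjusted p = 0.01 by limma), and without the growth microgravity array it was 0.54 (adjusted p = 0.00172). Sp7 (probe set 10433003) had 7.26, 7.35, 6.98 and 6.80 in growth medium and 7.02, 7.21, 6.98 and 6.75 in osteoinductive medium. Its values were low throughout. Its lowest flight array, osteoinductive microgravity at 7.02, was just above its highest ground-based array, growth ground at 6.98. The median log2 intensities of those arrays, 7.62 and 7.50, lay further apart. The Sp7 difference between flight and ground-based arrays was 0.33 (SE 0.09, adjusted p = 0.0177 by limma). It no longer passed after quantile normalization (0.23, adjusted p = 0.0882), without the growth laboratory array (0.28, adjusted p = 0.075) or without the osteoinductive laboratory array (0.30, adjusted p = 0.0645).

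Dlx genes are also expressed in inhibitory neurons of the forebrain, and other members of the family were read beside Dlx5. Dlx1, Dlx2, Gad1 and Gad2 are among the 14 neuronal markers given above. Dlx6, the neighbour of Dlx5 on chromosome 6, was above its ground-based mean by 0.54 on the growth microgravity array and by 0.04 to 0.22 on the other three flight arrays. It did not pass between flight and ground-based arrays (0.24, adjusted p = 0.0932 by limma). Dlx1 was above its ground-based mean by 1.20 on the growth microgravity array and by 0.14 to 0.59 on the others, and rose in flight by 0.56 (SE 0.14, adjusted p = 0.00873). Gad1, an enzyme of GABA synthesis in inhibitory neurons, was highest on the same array, by 1.36 against 0.58 to 0.70 on the other three, and rose by 0.81 (SE 0.14, adjusted p = 0.000882). Dlx2 and Gad2, another enzyme of GABA synthesis, rose by 0.34 (SE 0.09, adjusted p = 0.0101) and 1.17 (SE 0.11, adjusted p = 8.08e-06), and for them the growth microgravity array did not stand apart. Dlx2 was 0.48 above its ground-based mean there and 0.46 on the growth centrifuge array, and Gad2 had log2 intensities of 8.50 and 8.40 on the same arrays. Dlx3, known from osteoblasts and skin, did not pass (0.11, SE 0.09) and on the growth microgravity array was 0.09 above its ground-based mean. Over the 8 arrays the Pearson correlation with Dlx5 was 0.94 for Gad1, 0.86 for Dlx6, 0.85 for Dlx1 and 0.84 for Gad2. It was 0.79 for Dlx2, 0.75 for Stmn2 and 0.41 for Dlx3. For the cartilage genes Col10a1, Acan and Col2a1 it was 0.88, 0.83 and 0.80. These values describe arrays that share the same flight difference. Stmn2, the marker with the largest flight difference, read 11.44 on the growth microgravity array and 11.39 on the growth centrifuge array. The part of neuronal or cartilage RNA in the Dlx5 values was not tested.

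**Figure D2:**
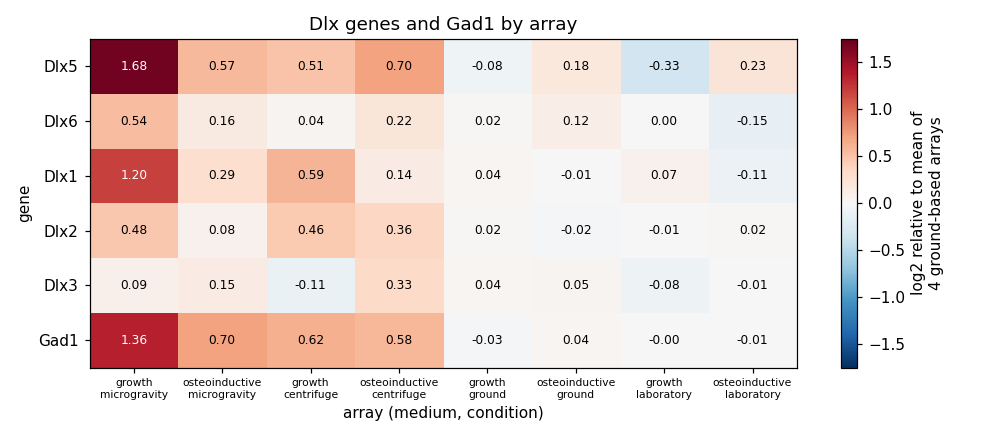
Log2 intensity of Dlx5, 4 other Dlx genes and Gad1 (rows) on each array (columns), relative to that gene's mean over the 4 ground-based arrays; red is higher, blue lower, and the number is the value. Dlx5, Dlx1, Dlx6, Dlx2 and Gad1 are highest on the growth microgravity array, at 1.68, 1.20, 0.54, 0.48 and 1.36, Dlx2 being at 0.46 on the growth centrifuge array as well, and Dlx3 is at 0.09 on the growth microgravity array.

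Alpl, the phosphatase that removes pyrophosphate (probe set 10517587), had log2 intensities of 7.93, 7.79, 7.58 and 7.30 in growth medium, in the order microgravity, centrifuge, ground and laboratory. In osteoinductive medium they were 7.82, 7.84, 7.50 and 7.60. The flight and ground-based arrays did not overlap, and the whole range was 0.63. The difference was 0.35 (SE 0.09, adjusted p = 0.00829 by limma), and it passed in all 15 alternatives, with values from 0.28 to 0.39. In the comparison of microgravity with ground units alone it did not pass (0.33, adjusted p = 0.0719).

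Ibsp showed the widest range of the 6 measured genes, 2.51 on the log2 scale. Its probe set (10523701) read 8.58 in microgravity, 8.13 on the centrifuge, 6.07 in ground units and 6.53 in dishes in growth medium. The values in osteoinductive medium were 8.00, 7.64, 6.35 and 6.46. Every flight array was above every ground-based array by more than 1 log2 unit. The difference between flight and ground-based arrays was 1.73 (SE 0.16, adjusted p = 7.29e-06 by limma in the fit over all 19938 genes, and 4.59e-06 over the genes above the filter, which Ibsp passed only through its flight arrays). The values ranged from 1.42 to 1.87 over 15 alternatives, the lowest with 32 added before log2, which shrinks differences of dim genes. Without the osteoinductive microgravity array, the one with the highest lung markers, the difference was 1.72. The other flight arrays also had higher lung marker sums than the ground-based arrays. The part of lung RNA in the Ibsp values was not tested.

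Ibsp was higher on both the microgravity and the centrifuge arrays than in ground units. Microgravity against ground units differed by 2.08 (SE 0.18) and the centrifuge against ground units by 1.67 (SE 0.18), comparisons that share the ground arrays. The adjusted p by limma was 1.9e-05 and 0.000123 in the fit over all 19938 genes. Over the genes above the filter, which Ibsp passed only through its flight arrays, it was 7.44e-06 and 5.36e-05. Within single pairs of arrays microgravity was above ground by 2.51 in growth and 1.64 in osteoinductive medium, and the centrifuge by 2.06 and 1.28. Of all genes above the filter, 28.7% were called in microgravity against ground, 10.6% as higher, and 10.1% on the centrifuge against ground, 6.34% as higher. Ibsp is also made by hypertrophic chondrocytes, and chondrocyte markers rose in the same arrays. Of 10 above the filter, 8 rose and 1 fell in flight, with a median of 0.49, including Col2a1, the main cartilage collagen, by 1.12 and Col10a1, the collagen of hypertrophic cartilage, by 0.52 (SE 0.10, adjusted p = 0.00242). Col11a1 fell by 0.28. Acan and Matn1 were among the 10 and passed the filter only through their flight arrays. In flight 12.7% of all genes above the filter were called higher. The part of cartilage RNA in the Ibsp values was not tested.

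The neighbours of Ibsp did not show its pattern in these values, although a difference between genes was not tested. Dmp1 (probe set 10523693) read 7.50, 7.48, 7.25 and 7.18 in growth medium and 7.47, 7.36, 7.49 and 7.31 in osteoinductive medium. The osteoinductive ground array was as high as the flight arrays, so the groups overlapped, and the whole range was 0.32. The difference between flight and ground-based arrays was 0.15 (95% interval -0.04 to 0.33, adjusted p = 0.192 by limma). Mepe, another matrix phosphoprotein of osteocytes, lay below the filter at 5.76 to 6.15 and did not pass either (0.08, SE 0.09).

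Phex, dim like Sp7, had its probe set (10607499) at 7.07, 7.16, 6.71 and 6.98 in growth medium. In osteoinductive medium the values were 6.99, 6.73, 6.44 and 6.72. The groups overlapped because the growth laboratory array was above the osteoinductive centrifuge array. Flight against ground-based arrays differed by 0.28 (95% interval 0.07 to 0.49, adjusted p = 0.0523 by limma). It passed without the osteoinductive centrifuge array (0.33, adjusted p = 0.0447) and with the means of conditions in the fit of condition and medium (0.28, adjusted p = 0.0323), 2 of 15 alternatives. Microgravity against ground units differed by 0.46 (SE 0.12, adjusted p = 0.0223, fit over all genes, in which 9.6% were called higher). That call was lost without the osteoinductive microgravity array (adjusted p = 0.127), without the growth ground array (0.128), without the osteoinductive ground array (0.161) and after quantile normalization (0.0728).

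Microgravity against ground units called 3 of the 6 genes higher, Ibsp, Phex and Dlx5, and none lower. Of all genes above the filter 10.6% were called higher there, and 9.6% in the fit over all genes, used for Phex. The share among genes as dim as the 6 is not given for the comparisons with ground units. For Dlx5 the difference was 1.07 (SE 0.28, adjusted p = 0.0146 by limma), 1.76 in growth medium and 0.39 in osteoinductive medium. Without the growth microgravity array it was 0.35 (adjusted p = 0.19), and without the growth ground array 0.88 (adjusted p = 0.0705). The centrifuge against ground units called Ibsp alone, where 6.34% of all genes above the filter were called higher, and Dlx5 differed there by 0.55 (adjusted p = 0.268). In the fit of only those 4 arrays, which has fewer residual degrees of freedom, Dlx5 passed with the same difference (adjusted p = 0.00419 by limma). Leaving out either microgravity array also left the difference at 0.55. For this comparison those are the same fit, because the microgravity array that remains has its own term.

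Microgravity against the centrifuge addressed gravity within the same flight hardware, and none of the 6 genes passed. Limma called 0 of 13205 genes, 0%, with 1507 at an unadjusted p under 0.05. The largest differences were those of Dlx5, 0.52 (95% interval -0.09 to 1.14), and Ibsp, 0.40 (0.01 to 0.79), with adjusted p = 0.502 and 0.429. Ibsp was higher in microgravity in both media, by 0.45 and 0.36. Dlx5 was higher by 1.18 in growth medium and lower by 0.13 in osteoinductive medium (log2 difference -0.13), so the media differed in sign. The intervals of the other 4 genes ran between -0.40 and 0.36. Ground units against dishes also called 0 of the 6 and 0% of all genes, with 269 at an unadjusted p under 0.05, and the differences ran from -0.28 for Ibsp to 0.20 for Sp7.

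The osteoinductive medium was compared with growth medium over all 4 conditions, and none of the 6 genes passed, while 14.5% of the genes above the filter did, and 8.45% in the fit over all genes. The 4 osteoinductive arrays overlapped the 4 growth arrays for all 6 genes, whereas 6.16% of the genes above the filter were higher without overlap and 3.57% lower. The log2 differences were 0.04 for Alpl (95% interval -0.16 to 0.24), 0.06 for Dmp1 (-0.14 to 0.25), -0.11 for Sp7 (-0.30 to 0.07), -0.21 for Ibsp (-0.49 to 0.06), -0.26 for Phex (-0.45 to -0.07) and -0.02 for Dlx5 (-0.46 to 0.41). Each interval lies within 0.49 of 0, and the adjusted p from limma was lowest for Phex, 0.0951. The single pairs varied. For Alpl osteoinductive medium was higher by 0.30 in dishes and by 0.06 on the centrifuge, and the differences in ground units and microgravity were -0.09 and -0.12.

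**Figure D3:**
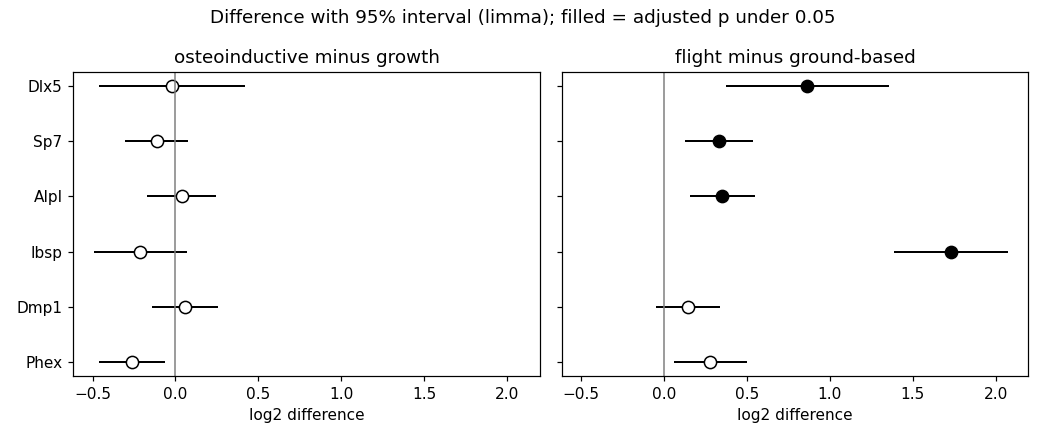
Log2 difference (horizontal axis) of the 6 measured genes (vertical axis) for osteoinductive minus growth medium and for flight minus ground-based arrays; lines are 95% intervals from limma and filled points passed an adjusted p of 0.05. No gene passed between media, and Ibsp at 1.73, Dlx5 at 0.87, Alpl at 0.35 and Sp7 at 0.33 passed in flight.

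The effect of the medium was also set between flight and ground-based arrays. In ground-based arrays, where 1.7% of all genes were called, osteoinductive medium gave differences of 0.41 for Dlx5 (95% interval -0.18 to 1.00), 0.19 for Dmp1, 0.11 for Ibsp and 0.10 for Alpl. In flight arrays, where 9.63% were called, all 6 differences were below 0, among them -0.54 for Ibsp (-0.94 to -0.13) and -0.46 for Dlx5 (-1.05 to 0.13). None passed in either. The interaction itself was -0.65 for Ibsp (SE 0.26), -0.87 for Dlx5 (SE 0.38) and -0.26 for Dmp1 (SE 0.16), each with adjusted p = 0.999 by limma. That test called 0% of all genes, with 525 at an unadjusted p under 0.05. These values turned on single arrays. Without the growth microgravity array the interaction of Dlx5 was -0.28 and did not pass, and its medium difference in flight arrays was 0.13 (adjusted p = 0.519 by limma). Without the growth centrifuge array the interaction was -1.46 (adjusted p = 0.0278), and the medium difference in flight arrays was -1.05 for Dlx5 (adjusted p = 0.000803) and -0.76 for Ibsp (adjusted p = 0.0271), against -0.31 for Ibsp without the growth microgravity array, which did not pass. In each of these fits growth medium in flight is 1 array, assumed to vary like the other groups, and for Dlx5 the array left in the second case is the one at 9.14.

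Other genes, from osteoblast lists chosen with earlier results of these data known, did change with the medium. Of 87 genes in 5 lists, 82 had a probe set and 73 lay above the filter, of which 10 rose and 10 fell in osteoinductive medium, with a median of 0.03 against -0.02 for all genes. Among all genes above the filter 14.5% were called. Phospho1, the phosphatase that releases phosphate inside matrix vesicles, rose by 0.87 (SE 0.12, adjusted p = 0.000402 by limma), from 7.04 to 7.87 on the growth arrays to 8.11 to 8.56 on the osteoinductive arrays, with no overlap. In the same list of 11 genes of phosphate and pyrophosphate handling, Mgp, an inhibitor of calcification, and the phosphate transporter Slc20a1 fell by 0.48 and 0.40, and the other 8 did not pass.

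Among 16 transcription factors 2 rose and 2 fell with osteoinductive medium. Zbtb16, a zinc finger factor known to respond to glucocorticoids, rose by 1.23 (SE 0.09, adjusted p = 3.77e-06) and Sox9, the cartilage factor, by 0.44, while Lef1, a Wnt effector, fell by 0.49 and Prrx1, a factor of limb mesenchyme, by 0.48. Of 16 bone matrix genes 3 rose, the matricellular protein Postn by 1.39, the collagen cross-linking enzyme Lox by 1.10 and the proteoglycan Dcn by 0.57, and Tnc (tenascin C) fell by 1.12. Col1a1, the main collagen of bone, did not pass (0.11, SE 0.08). Of 14 late osteoblast and osteocyte genes the collagenase Mmp13 rose by 1.08 and the secretory kinase Fam20c by 0.51, while the hyaluronan receptor Cd44 fell by 0.48 and the decoy receptor Tnfrsf11b by 0.37. Of 16 BMP and Wnt genes Wnt5a rose by 0.58 and Id1, a BMP target, by 0.39, while the ligands Bmp2 and Wnt10b fell by 0.61 and 0.31 and Id2 by 0.46.

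Of the same 73 genes 9 rose and 33 fell between flight and ground-based arrays, with a median of -0.22 against -0.09 for all genes. Among all genes above the filter 12.7% were higher and 25.7% lower, so the genes that rose were near the background share. Among the transcription factors 9 of 16 fell and 2 rose. Lef1 fell by 0.41 (SE 0.11, adjusted p = 0.0102 by limma), the mesenchymal factor Foxc2 by 0.39 and the glucocorticoid receptor Nr3c1 by 0.38, while Hey1, a Notch and BMP target, rose by 0.58. Among genes of phosphate and pyrophosphate handling 6 of 11 fell and 1 rose. Mgp fell by 0.76 (SE 0.14, adjusted p = 0.00134), the phosphate transporter Slc20a2 by 0.41 and Ank, which exports pyrophosphate, by 0.39, and Smpd3, a sphingomyelinase needed for mineralisation, rose by 0.55.

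Bone matrix genes fell in flight in 10 of 16 cases and rose in 1. Tnc fell by 0.94, the collagen chaperone Serpinh1 by 0.66 (SE 0.09, adjusted p = 0.000109) and the collagen hydroxylase Plod2 by 0.49, and Postn rose by 0.62. Col1a1 did not pass (0.05, SE 0.07). Among late osteoblast and osteocyte genes 4 of 14 fell, near the share of all genes, and 3 rose. Hyou1, a chaperone of the endoplasmic reticulum, fell by 1.08 and Cd44 by 0.55, and Mmp13 rose by 0.66 and the potassium channel Kcnk2 by 0.52. Of the BMP and Wnt genes Id2 and Bmp4 rose by 0.67 and 0.35 and 4 fell, Wnt5a by 0.34 and Wnt10b by 0.32 among them. The differences of the 6 measured genes were all above 0, and the medians of the 5 lists ran from -0.27 to -0.04. The 6 are dim, and many list genes are brighter. In the fit over all genes, 21.0% of the genes at the level of the 6 were called higher and 6.68% lower, against 11.8% and 22.9% of the genes above the filter.

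**Figure D4:**
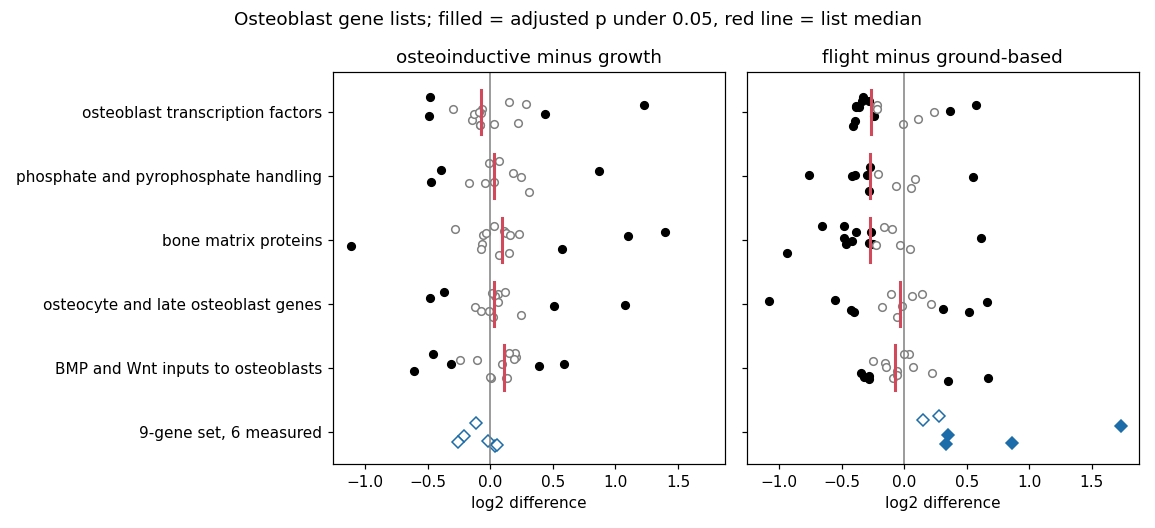
Log2 difference (horizontal axis) of genes above the filter in 5 osteoblast gene lists (circles) and of the 6 measured genes (diamonds), by list (vertical axis, with points spread to separate them), for osteoinductive minus growth medium and flight minus ground-based arrays; filled points passed an adjusted p of 0.05 and red lines are list medians. In flight 33 of the 73 list genes fell and 9 rose, and the 6 measured genes lie between 0.15 and 1.73.

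The genes whose log2 intensity followed each measured gene most closely over the 8 arrays were found among 12631 named genes above the filter, as a description, since the arrays share the differences between flight and ground. For Ibsp they were Mcf2l, a guanine nucleotide exchange factor, with a Pearson r of 0.998, and Tafa2, a secreted protein of the nervous system, with 0.996. Tafa2 read 8.37, 8.19, 6.98 and 7.13 in growth medium and 8.00, 7.90, 7.08 and 7.12 in osteoinductive medium, the same split between flight and ground-based arrays as for Ibsp. For Dlx5 they were Tubg2, a gamma-tubulin (0.982), and Ccdc92 (0.980), and both were highest on the growth microgravity array, at 8.16 and 9.11. For Alpl they were Pou3f4, a POU-domain transcription factor (0.983), and Sorcs2, a sorting receptor of neurons (0.982). Those of Dmp1 were Hexdc (0.946) and Hcrtr1, an orexin receptor (0.925), over a range of only 0.32 in Dmp1. Among the 6 measured genes themselves r was highest for Alpl with Dlx5 (0.87) and for Ibsp with Alpl and with Dlx5 (0.84 each), and lowest for Dmp1 with Phex (0.14).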

How the data were processed

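The authors deposited linear intensities, 1 value per probe set and array, for 8 arrays. RMA and GCRMA are named, per the submitters' processing notes, without saying which was applied here. The values were used without further normalization after log2. Of 35557 probe sets, 21789 had 1 gene, and a gene with several was read from the brightest. Genes with a mean over the 40th percentile were tested (13205 of 19938), and dim genes in a fit of all genes.

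Tests used limma 3.58.1 in R 4.3.3 (lmFit, eBayes, Benjamini-Hochberg, two-sided, threshold 0.05). The mean estimates were checked on simulated arrays with independent noise, which hold no effect that the fit leaves out. Media and single conditions were fitted together (3 residual degrees of freedom), and flight with medium (5), which treats microgravity and centrifuge as repeats, as well as ground and laboratory. Flight by medium left 4. The genes and lists were chosen with earlier results of these data known. Text names the 9 genes, the 4 largest called differences of each list for medium and flight, the 2 genes most like each measured gene above the filter, and markers. Dlx1, Dlx2, Dlx3, Dlx6, Gad1, Gad2, Dcx, Myh3, Pecam1, Slc34a2, Mrc1, Cd36, Lpl, Mepe, Col1a1, Wnt10b for medium and the chondrocyte examples were chosen after their values were seen. Alternatives were quantile normalization, 32 added before log2, other filters and terms, and leaving out each array.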

Additional observations from a re-analysis of the deposited data

Results flagged for a closer look

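The Dlx5 log2 intensity of the growth microgravity array, 9.141, stood far from the other three flight arrays, which lay between 7.96 and 8.16. It was the only 1 of 24 groups of 4 arrays to stand out in this way, and chance alone flags about 1 group in 20, that is 5%. The effect of osteoinductive medium on Dmp1 was below 0 in both pairs of flight arrays (-0.03 and -0.12) and above 0 in both pairs of ground-based arrays (0.24 and 0.14). The difference between these effects was -0.2645 on the log2 scale, and the interaction did not pass (adjusted p = 0.999 by limma).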

How the results depend on the processing

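No paired analysis was possible because the labels give no replicate numbers that link arrays, apart from the term for condition, with which the media were already compared within each condition. Of the differences of single measured genes, 696 kept their direction and their side of the threshold, 9 lost the call, 8 gained it and 31 changed sign, all of the last among differences that had not passed. The cause was not tested.

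Leaving out each array in turn, limma called 3 to 5 of the 6 genes between flight and ground-based arrays, 1 to 3 in microgravity against ground, 1 to 2 on the centrifuge against ground, 0 to 2 between media in flight arrays and 0 to 1 in the interaction. With only the 4 arrays of centrifuge and ground, 2 were called in place of 1. After quantile normalization Dmp1 changed sign in microgravity minus ground (-0.0015) and centrifuge minus ground (-0.033). Other changes of sign came when 1 array was left out. For osteoinductive minus growth medium these were Alpl from -0.050 to 0.088, Dmp1 from -0.0058 to 0.12 and Dlx5 from -0.22 to 0.34. For microgravity minus centrifuge these were Alpl from -0.046 to 0.16, Dmp1 from -0.055 to 0.18, Phex from -0.034 to 0.21 and Dlx5 from -0.20 to 1.25. For microgravity minus ground these were Dmp1 from -0.0088 to 0.24. For centrifuge minus ground these were Dmp1 from -0.072 to 0.18. For ground minus laboratory these were Alpl from -0.081 to 0.27, Ibsp from -0.62 to 0.047 and Dlx5 from -0.28 to 0.49. For medium in ground-based arrays these were Sp7 from -0.14 to 0.083, Alpl from -0.038 to 0.25 and Ibsp from -0.12 to 0.34. For medium in flight arrays these were Alpl from -0.10 to 0.041 and Dlx5 from -1.05 to 0.13. For the interaction these were Alpl from -0.28 to 0.0075 and Phex from -0.13 to 0.16.

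Counts over all genes moved further. For medium 1921 genes became 312 without a term for condition and 1115 without either centrifuge array, and for flight 5068 became 3159 without a term for medium. For microgravity against ground 3789 became 1377 without growth microgravity, 1851 without growth ground and 1481 without osteoinductive ground. For the centrifuge against ground 1336 became 641 with a filter at the 60th percentile, and 643 to 2087 when arrays were left out. Microgravity against the centrifuge went from 0 to at most 49, ground against laboratory from 0 to 9, medium in ground-based arrays from 225 to between 56 and 574, medium in flight arrays from 1272 to 2058 after quantile normalization and to between 400 and 2781 without single arrays, and the interaction from 0 to at most 15. None of the 6 genes lay above the filter at the 60th percentile, a log2 intensity of 7.99, and Sp7 and Phex lay below the main filter, so low signal limits their differences.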
